A study of Mus musculus with 2 samples.

Results

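The 98 cells described here were single cells from the trunk and limbs of E14 mouse embryos that carried RNA of both Sox2, a transcription factor of neural progenitors and glia, and Fabp7, a fatty acid binding protein of radial glia and of immature glia. Each held at least 2 unique molecular identifiers (UMIs, each counting 1 captured RNA molecule) of Sox2 and of Fabp7 and no UMI of Sox10, a transcription factor of the neural crest and its glia. Each also held at most 2 UMIs of Krt5, Krt14 and Krt15 together, and fewer than 5 UMIs of the neuronal genes Tubb3, Stmn2 and Elavl3 together. They were 98 of 22086 cells with at least 1000 UMIs and at most 10% mitochondrial UMIs, a share of 0.444% (exact 95% binomial interval 0.360% to 0.540%), out of 27766 barcodes in all. The cells are called Sox2/Fabp7 cells below, since the name neural progenitors was met by only a minority of them.

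The study deleted Srsf2, which encodes a splicing factor of the serine/arginine-rich (SR) family, in cells that express or once expressed Myf5. The embryos carried Myf5-Cre, a Cre recombinase transgene under the promoter of the muscle determination gene Myf5, and a tdTomato (tdT) reporter at Rosa26 that Cre switches on, with either both Srsf2 alleles floxed (SRSF2f/f/Myf5-Cre/tdT) or 1 floxed and 1 wild-type allele (SRSF2f/w/Myf5-Cre/tdT). Embryos were decapitated and eviscerated, tdTomato-positive cells were sorted, and 1 droplet library was made for each genotype, so that the Cre and the reporter were shared by both and no comparison had a replicate. All intervals below are 95% intervals that cover counting error only, and no p-value is given.

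The libraries are named by their sample titles, because other evidence was divided on those titles. Within the shared count table, cells were tied to a title through their number (15268 barcodes in the SRSF2f/f-titled library and 12498 in the SRSF2f/w-titled library). Cells with 2 or more detected muscle genes made up 23.5% of passing cells in the f/f-titled library and 1.62% in the f/w-titled library, and Srsf2 in the cells outside the Sox2/Fabp7 gate stood at 219 and 152 counts per 1000000 UMIs (CPM). The names that the authors' pipeline gave its sample folders also ran opposite to the titles. The order of the cell numbers that the study states for mutant and control, with more mutant cells, ran with the titles. The order of its skeletal muscle shares from clusters, with a far smaller share in the mutant than in the control, ran opposite to the titles. Every direction below is therefore a direction between 2 libraries and not between genotypes. The f/f-titled library held 156093779 UMIs and the f/w-titled library 128116615. The barcode sequences common to both libraries numbered 74, and 0 of them belonged to Sox2/Fabp7 cells.

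In the embryonic spinal cord, neural progenitors line the central canal, divide there and give rise first to neurons and later to glia, and they express Sox1, Sox2, Sox3, Pax6, the Notch target Hes5, Fabp7 and the glutamate transporter Slc1a3. Outside the cord, neural crest cells follow the growing nerves and become Schwann cell precursors and satellite glia, which also express Sox2 and Fabp7. These peripheral glia are told apart by Sox10, the forkhead factor Foxd3, the neuregulin receptor Erbb3 and the adhesion molecule Cdh19. Myf5 RNA itself was nearly undetected in the Sox2/Fabp7 cells, with 1 UMI in 1 cell.

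Most Sox2/Fabp7 cells carried genes of peripheral glia and not those of the neural tube. Of the 98 cells, 73 (74.5%, 64.7% to 82.8%) held a UMI of at least 1 of Foxd3, Cdh19 and Erbb3. The share was 33 of 42 cells (78.6%) in the f/f-titled library and 40 of 56 (71.4%) in the f/w-titled library, which did not differ beyond counting error. In neurons, which should lack these genes, 89 of 1864 cells without Sox2 or Sox10 UMIs (4.77%) held at least 1 of them, at a median of 8441.5 UMIs a cell against 7945 in the Sox2/Fabp7 cells, and in all other passing cells 9.81% did. By the number of the 3 genes detected, 25 cells stood at 0, 18 at 1, 33 at 2 and 22 at all 3. The 73 cells with at least 1 are called glia-gene cells and the other 25 glia-gene-poor cells. This division was drawn after the values had been seen, so that differences between the 2 groups are described and not tested.

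**Figure D1:**
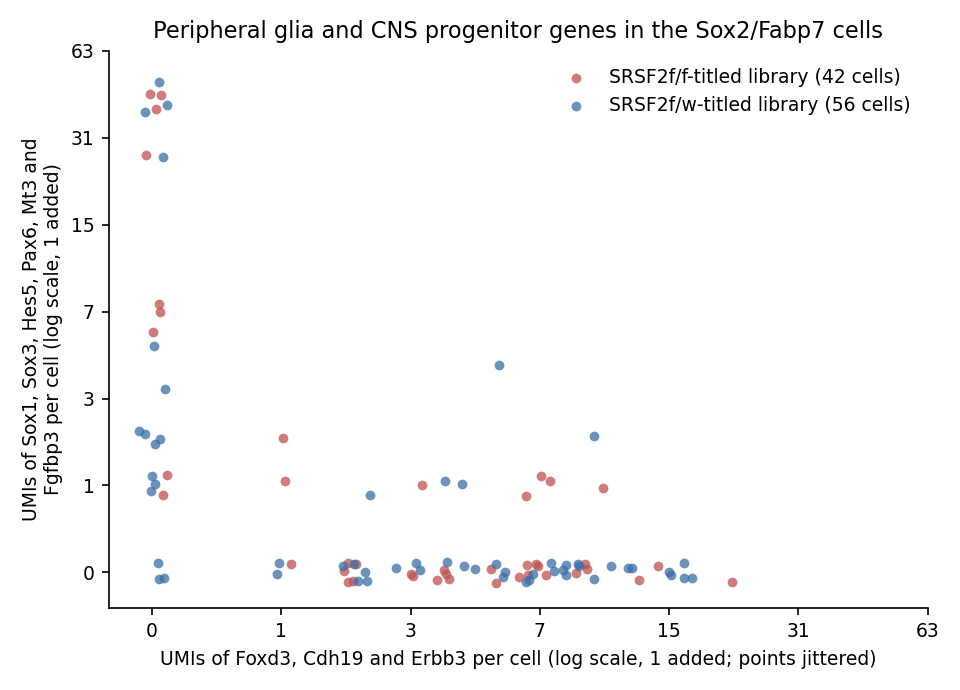
Each point is 1 of the 98 Sox2/Fabp7 cells, with the summed UMIs of 3 peripheral glia genes on the horizontal axis and of 6 neural tube genes on the vertical axis, both on log scales with 1 added and with jitter, coloured by library. Most glia-gene cells lie along the bottom, 61 of 73 at 0, with a median of 6 glia-gene UMIs, and the 25 glia-gene-poor cells stand at 0 on the horizontal axis by their definition, 3 of them also at 0 on the vertical axis.

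The 25 glia-gene-poor cells were the ones in which 6 genes of central nervous system progenitors were mainly detected. These 6 genes, too, were chosen after the values had been seen, so their counts are description. Of the 6 genes Sox1, Sox3, Hes5, Pax6, Mt3 and Fgfbp3, 2 or more were detected in 15 of these 25 cells (60%, 38.7% to 78.9%), against 2 of 73 glia-gene cells (2.74%) and 45 of 1864 neurons (2.41%). Their summed UMIs ran from 0 to 53 with a median of 3 in the glia-gene-poor cells, and from 0 to 4 in the glia-gene cells, 61 of which stood at 0. Among the 25 cells, 9 came from the f/f-titled and 16 from the f/w-titled library. The median depth was 8494 UMIs in glia-gene and 6837 UMIs in glia-gene-poor cells, and the part of depth in the division was not tested.

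The requirement of no Sox10 UMI removed only part of the cells with peripheral glia genes. Under the same limits but with any Sox10 count there were 177 cells, of which 98 (55.4%) had no Sox10 UMI. Among the 144 of these that held at least 1 of the 3 glia genes, 73 (50.7%, 42.2% to 59.1%) had no Sox10 UMI, and 71 had at least 1. Among the 33 with none of the glia genes, 25 (75.8%, 57.7% to 88.9%) had no Sox10 UMI. Cells just outside the limit, with exactly 1 Sox10 UMI, numbered 41, and 37 of them held a glia gene. The 79 cells with Sox10 RNA were deeper, with a median of 13134 UMIs, than the Sox2/Fabp7 cells, with 7945.

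**Figure D2:**
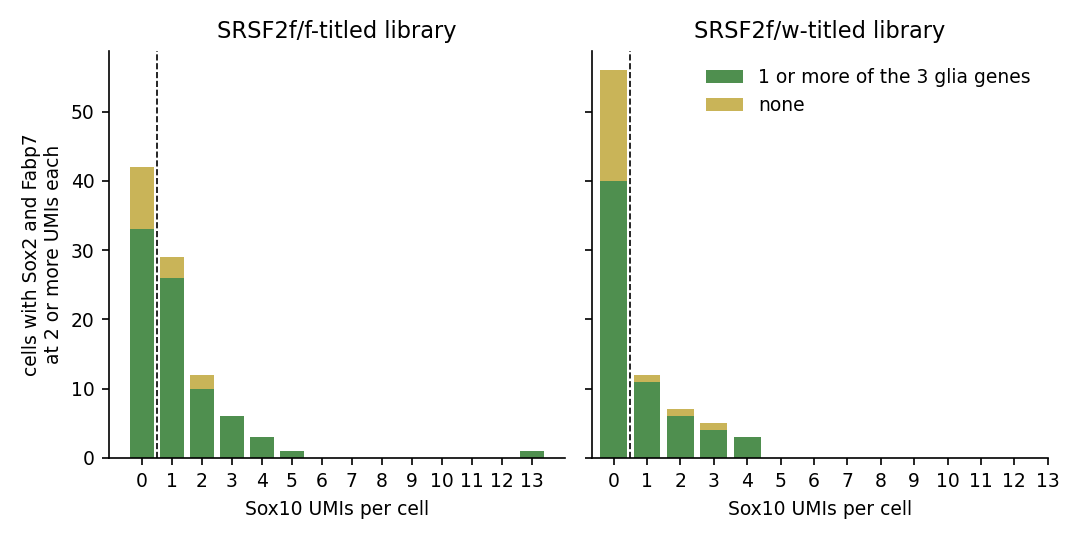
Bars give the number of cells at each Sox10 UMI count among all 177 cells that meet the Sox2, Fabp7, keratin and neuron limits, by library, with the part that held at least 1 of the 3 glia genes in green. The bars at 0 are the 42 f/f-titled and 56 f/w-titled Sox2/Fabp7 cells, and the f/f-titled library has more cells at 1 Sox10 UMI (29) than the f/w-titled library (12).

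At the lower edge for Sox2, 38 members held exactly 2 UMIs, and 49 cells just outside held 1. At the edge for Fabp7, 6 members held 2 UMIs and 10 cells outside held 1. Sox2 ran from 2 to 8 UMIs a cell with a median of 3 in the f/f-titled library, and from 2 to 10 with a median of 3 in the f/w-titled library. Fabp7 ran from 2 to 321 with a median of 24 and from 2 to 124 with a median of 19. These ranges were set by the rule at their lower end and are given as description. The limit on keratins was reached from below by 10 cells with 1 or 2 keratin UMIs, all in the f/w-titled library, and the limit on neuronal genes left out 26 cells with a median of 30991 UMIs.

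Glia-gene cells carried peripheral glia RNA at the level of cells with Sox10 RNA. For the 3 genes that made the division, the levels are description, since glia-gene cells had to hold one of them. Foxd3, which keeps neural crest cells and their glial descendants undifferentiated, stood at 395 CPM in glia-gene cells, 339 CPM in the 79 cells with a Sox10 UMI and 4.34 CPM in neurons, and was detected in 70 of 73 glia-gene cells. Erbb3, through which axonal neuregulin reaches Schwann cell precursors, stood at 96.03 CPM in glia-gene cells and 94.8 CPM in cells with Sox10 RNA. Cdh19, a cadherin of Schwann cell precursors, stood at 64.02 and 67.7 CPM. Of genes outside the division, the low-affinity neurotrophin receptor gene Ngfr stood at 52.2 CPM in 18 of 73 glia-gene cells and at 61.3 CPM in the cells with Sox10 RNA, with 0 UMIs in the 25 glia-gene-poor cells (with 3 cells taken as the most that a count of 0 allows, a share of up to 12%). Apoe, a lipid carrier abundant in glia, stood at 2224 CPM in glia-gene cells, 1534 CPM in the cells with Sox10 RNA and 565 CPM in glia-gene-poor cells.

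Between the 2 libraries, the glia-gene cells kept these levels within less than 2-fold. Foxd3 was at 385 CPM in the f/f-titled and 402 CPM in the f/w-titled library. Erbb3 was at 82.4 and 107 CPM, and Cdh19 at 45.2 and 79.2 CPM. Over all Sox2/Fabp7 cells the log2 ratio of f/w-titled over f/f-titled library was −0.18 (−0.50 to 0.14) for Foxd3, 0.13 (−0.54 to 0.83) for Erbb3 and 0.56 (−0.30 to 1.48) for Cdh19. None of these 3 ratios differed from 0 beyond counting error.

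Glia-gene cells were at least 2-fold above glia-gene-poor cells in both libraries for 193 of 3626 genes with at least 50 UMIs (5.32% of the genes) and at least 2-fold below for 71 (1.96%), counts that include the 3 genes that made the division. Ahr, Vgll3, Adgrg6 and Col28a1 were among the leading others and were chosen after their values were seen. Ahr, the aryl hydrocarbon receptor, stood at 213 and 283 CPM in glia-gene cells of the f/f-titled and f/w-titled library, and was detected in 63 of 73 glia-gene cells and in 2 of 25 glia-gene-poor cells. Vgll3, a cofactor of TEAD transcription factors, was detected in 47 of 73 and 1 of 25 cells. Adgrg6, an adhesion receptor needed for Schwann cell myelination, was detected in 54 of 73 and 2 of 25, and the collagen gene Col28a1 in 40 of 73 and 1 of 25.

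Glia-gene-poor cells held several progenitor and glial genes of the neural tube at far higher levels. Fgfbp3, a binding protein of fibroblast growth factors, stood at 1233 CPM in the f/f-titled and 588 CPM in the f/w-titled library in these cells, and at 2.66 and 8.56 CPM in glia-gene cells. Hopx, a homeodomain-only protein of radial glia, stood at 1571 and 314 CPM against 10.6 and 6.42 CPM. Slc1a3, the glutamate transporter of radial glia and astrocytes, stood at 986 and 319 CPM against 39.9 and 77.1 CPM. These 3 genes were higher in the glia-gene-poor cells of both libraries, and their level there was higher in the f/f-titled library. Such RNA was uneven among these cells. Of the UMIs of the 6 neural tube genes given above in glia-gene-poor cells, 306 of 348 were in 8 cells with 26 to 53 each, and the others held at most 8. These 8 cells were 4 of 9 f/f-titled and 4 of 16 f/w-titled cells, and the part of that mix in the library difference was not tested. Mt3, a brain metallothionein, was detected in 11 of 25 glia-gene-poor and 3 of 73 glia-gene cells. Hes5, the Notch target that keeps progenitors from differentiating, was detected in 12 of 25 and 1 of 73 cells, and Pax6, which sets the identity of progenitors in the cord and the forebrain, in 10 of 25 and 1 of 73. Sox21, a SoxB2 factor of progenitors, stood at 130 and 224 CPM in the glia-gene-poor cells of the f/f-titled and f/w-titled library and at 5.31 and 8.56 CPM in glia-gene cells.

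**Figure D3:**
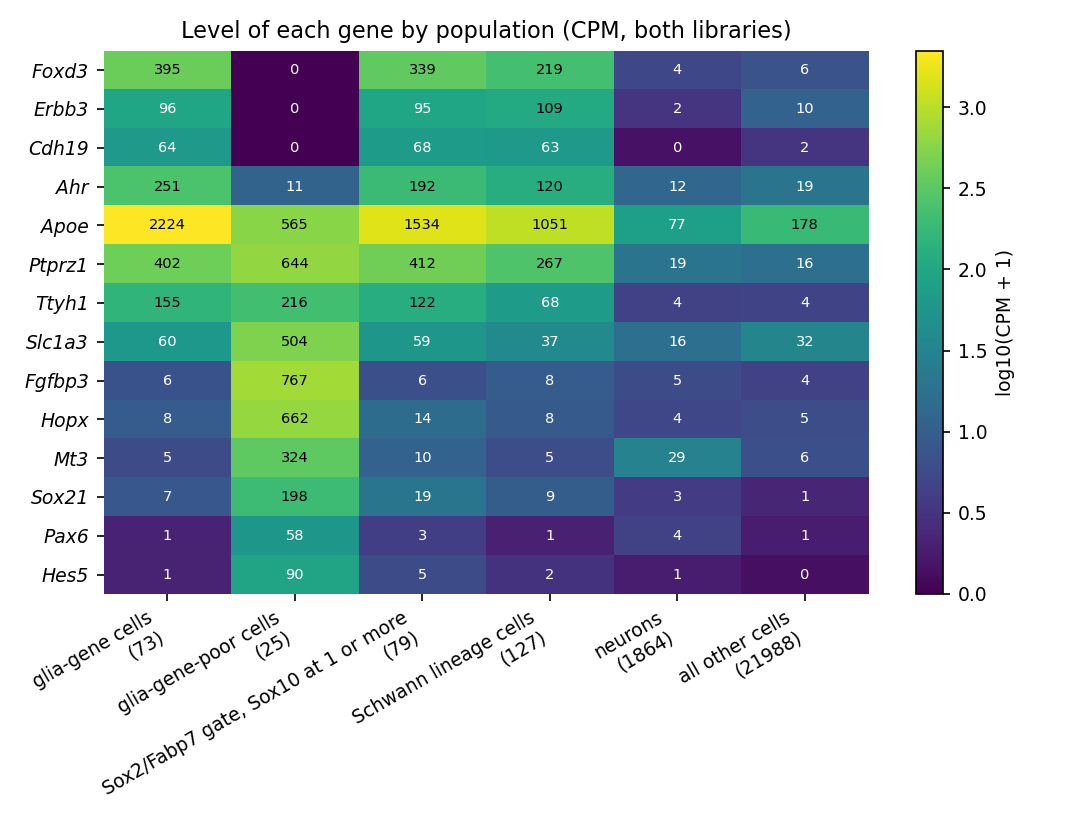
Each cell of the grid gives the CPM of 1 gene, from summed UMIs of both libraries, in a cell group, shaded on a log scale, with Schwann lineage cells taken as those with at least 2 Sox10 UMIs, some of which also meet the Sox2/Fabp7 gate. Foxd3, Erbb3 and Cdh19 have like levels in glia-gene cells and in cells with Sox10 RNA and stand at 0 in glia-gene-poor cells by their definition, while Fgfbp3, Hopx and Slc1a3 are highest in the glia-gene-poor cells.

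Among genes of glial fate, several were high in the glia-gene-poor cells. Sox9, which turns progenitors toward glia, stood at 511 CPM there and 81.8 CPM in glia-gene cells. Nfib, a nuclear factor I protein that acts with Sox9 in gliogenesis, stood at 785 and 325 CPM. Aldh1l1, a folate enzyme and astrocyte marker, stood at 82.8 CPM in 8 of 25 cells, with 0 UMIs in the 73 glia-gene cells and 0 UMIs in the cells with Sox10 RNA. Of 21 genes listed as gliogenic, 10 had at least 50 UMIs, and glia-gene cells were at least 2-fold below glia-gene-poor cells in both libraries for 6 and above for 1, Apoe, where 1.96% of all 3626 genes were below and 5.32% above. Of 5 genes listed for oligodendrocyte precursors, Olig2 had 9 UMIs in 4 cells and Olig1 24 UMIs in 5 cells. Pdgfra, the growth factor receptor of oligodendrocyte precursors and of mesenchyme, led the list with 58 UMIs, was the only one with at least 50, and stood at 108 CPM in glia-gene-poor and 33.2 CPM in glia-gene cells, where all other passing cells held 53.8 CPM.

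Of the general progenitor genes, most were not 2-fold apart between the groups of cells in both libraries, and a few were higher in the glia-gene-poor cells. Of 18 listed neural progenitor genes, 13 had at least 50 UMIs in the Sox2/Fabp7 cells, and 9 of these were at least 2-fold above all other passing cells in both libraries, where 5.68% of the 3626 genes were above and 0.441% were 2-fold below. The median of the 13 was 2.77 on the log2 scale, and that of all genes was 0.01. The rule itself chose 2 of the 13, and the rest were measured in cells picked by that rule, so the count is description. Sox9, Slc1a3 and Mt3 were at least 2-fold lower in glia-gene than in glia-gene-poor cells of both libraries and 0 of the 13 were higher, where 1.96% of all genes were lower and 5.32% higher, with a median log2 ratio of −0.57. Ptprz1, a receptor phosphatase of radial glia and of Schwann cell precursors, stood at 402 CPM in glia-gene and 644 CPM in glia-gene-poor cells. Ttyh1, a chloride channel gene of neural progenitors, stood at 155 and 216 CPM. Dbi, an acyl-CoA binding protein, stood at 2102 and 2699 CPM, and Gpm6b, a proteolipid of neural cells, at 288 and 324 CPM. Vimentin, the intermediate filament of immature cells, stood at 4893 and 3210 CPM and was in all 98 cells.

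The leading genes of the Sox2/Fabp7 cells against all other passing cells mixed the 2 groups. The 15 genes with the highest ratio in the lower library, Sox2 and Fabp7 among them, included Foxd3, Cdh19, Mal, Egfl8 and Col28a1, which glia-gene cells held, and Csmd1, Ttyh1, Ptprz1 and Sox2ot, which stood higher in glia-gene-poor cells. Sox2ot, a long noncoding RNA on the same strand as Sox2 whose gene contains it, stood at 44.1 CPM in the f/f-titled and 37.4 CPM in the f/w-titled library. Sox2 lies at chr3:34650405-34652461 on the plus strand of GRCm38, wholly within Sox2ot, so reads of the 2 could be split uncertainly. Slitrk2, a neural adhesion protein, stood at 161 and 118 CPM and was found in 48 of 73 glia-gene and 12 of 25 glia-gene-poor cells.

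Of the genes that mark position along the body axis, these cells held Hox genes and nearly none of the brain. Otx2, Emx1, Emx2, Six3, Lhx2, Rax, Nkx2-1 and En2, which mark parts of the forebrain, midbrain and anterior hindbrain, had 0 UMIs in the 98 cells (which by the same limit of 3 cells allows up to 3.06% of cells with a UMI for each gene). En1, a gene of the midbrain and also of ventral interneurons and limb ectoderm, had 10 UMIs in 5 f/f-titled cells and 0 in the f/w-titled library. A Hox gene was detected in 23 of 25 glia-gene-poor cells (92%) and in 59 of 73 glia-gene cells (80.8%). Summed over 39 Hox genes, the level was 1054 CPM in glia-gene-poor cells, 385 CPM in glia-gene cells, 1375 CPM in neurons and 365 CPM in all other passing cells. In glia-gene cells the level was 486 CPM in the f/f-titled and 304 CPM in the f/w-titled library, above and below the 351 and 383 CPM of all other passing cells. The gap in cells detected was widest for paralogues 6 to 8, at 22 of 25 (88%) against 31 of 73 (42.5%), and paralogues 12 and 13 were detected in 3 of 25 and 4 of 73 cells. After thinning to 2000 UMIs, paralogues 6 to 8 were detected in 11 of 24 (45.8%) against 12 of 73 cells (16.4%). Paralogues 10 to 11 were then detected in 9 of 24 (37.5%) against 6 of 73 cells (8.22%). Hoxc10, of the lumbar cord, had 3 UMIs in 3 f/f-titled cells and 28 UMIs in 15 f/w-titled cells. The sum of the 39 Hox genes went the other way, with 609 and 512 CPM and a log2 ratio of −0.25 (−0.48 to −0.016), and paralogues 4 to 5 were detected in 61.9% of f/f-titled and 41.1% of f/w-titled cells.

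**Figure D4:**
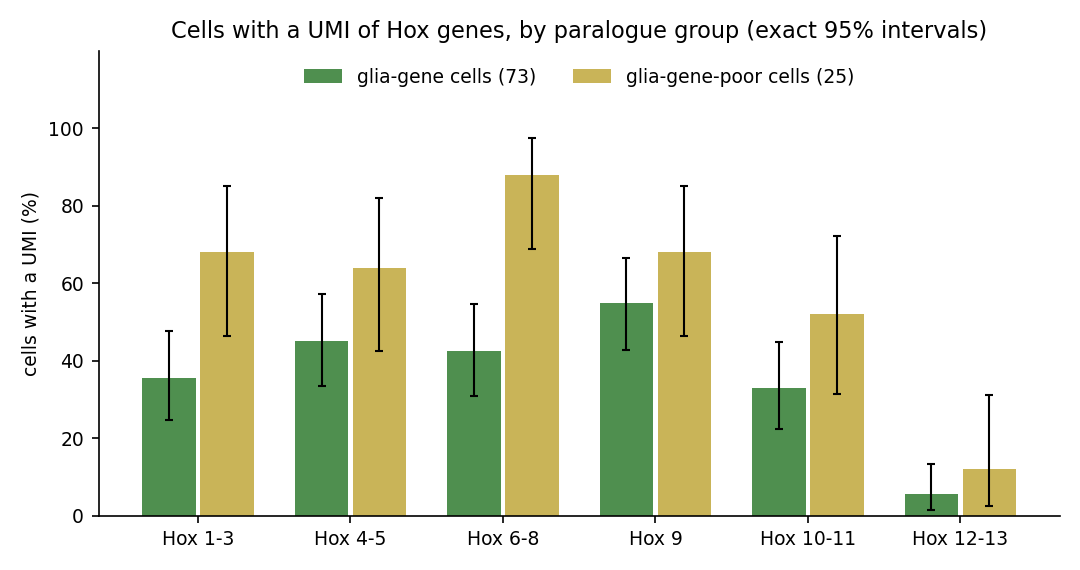
Bars give the percent of glia-gene cells and of glia-gene-poor cells with a UMI of each Hox paralogue group, with exact binomial 95% intervals over cells. Glia-gene-poor cells have the higher share for paralogues 1 to 3, 4 to 5, 6 to 8, 9, 10 to 11 and 12 to 13, with the widest gap at paralogues 6 to 8 (88% against 42.5%).

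Across the dorsoventral axis of the cord, dorsal genes were detected more often than ventral ones. Of the 98 cells, 27 (27.6%) held a dorsal gene without a ventral one, 6 (6.12%) a ventral gene without a dorsal one, 2 both, and 63 (64.3%) neither. Pax3, a paired factor of the dorsal cord that neural crest and its early glia also express, gave most of the dorsal calls, with 68 UMIs in 10 of 25 glia-gene-poor and 15 of 73 glia-gene cells. Without Pax3 and Pax7, which muscle cells also express, 9 of 98 cells (9.18%) held only dorsal genes and 8 (8.16%) only ventral ones. The f/w-titled library had 20 of 56 cells (35.7%) with dorsal genes alone and the f/f-titled library 7 of 42 (16.7%). After thinning to 2000 UMIs these were 11 of 56 (19.6%) and 3 of 41 (7.32%). At full depth without Pax3 and Pax7 they were 7 of 56 (12.5%) and 2 of 42 (4.76%). Dbx2, of the intermediate cord, was detected in 6 of 25 glia-gene-poor cells and in 1 of 73 glia-gene cells. Irx3 and Irx5, which cover the intermediate and dorsal cord, were detected in 4 and 7 of the 25 cells. The floor plate and ventral signal Shh, the roof plate signals Wnt1 and Wnt3a and the roof plate factor Lmx1a had 0 UMIs. Other genes of those lists were detected, 6 of 7 for the floor plate and 6 of 10 for the roof plate. Spon1, a secreted protein of the floor plate, led the former at 127 CPM in 55 cells, against 15.4 CPM in all other passing cells, and Rspo3, an enhancer of Wnt signalling, led the latter with 20 UMIs in 13 cells. The 7 floor plate genes were not particular to cells of the cord. They summed to 147 CPM in glia-gene, 238 CPM in glia-gene-poor and 102 CPM in Schwann lineage cells, and 46.8 CPM in all other passing cells.

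Of the signalling genes with at least 50 UMIs, most were not 2-fold apart between the groups of cells in both libraries. Glia-gene cells were above glia-gene-poor cells for 1 and below for 0 of 4 Notch genes, above for 2 and below for 1 of 7 Wnt genes, and above for 0 and below for 1 of 7 genes of bone morphogenetic protein signalling, where 5.32% of all genes were above and 1.96% below. Notch1, the receptor that holds progenitors undifferentiated, stood at 126 CPM in glia-gene and 108 CPM in glia-gene-poor cells, and the Notch effector Rbpj at 139 and 104 CPM. The ligand Jag1 was detected in 12 of 73 and 2 of 25 cells, and the ligand Dll1 in 1 of 73 and 4 of 25. Of 18 Notch genes, 4 had at least 50 UMIs, and 2 of them were at least 2-fold above other cells in both libraries, as were 5.68% of all genes. Wnt7b, a ligand of the ventricular zone, was detected in 10 of 25 glia-gene-poor cells and 1 of 73 glia-gene cells, while the receptor Fzd8 was detected in 34 of 73 glia-gene and 4 of 25 glia-gene-poor cells. Id3, a target of bone morphogenetic proteins, stood at 606 CPM in glia-gene and 961 CPM in glia-gene-poor cells. Of 12 Hedgehog genes, 4 had at least 50 UMIs and 0 were 2-fold apart between the 2 groups in both libraries. Commitment to neurons was rare, with 0 UMIs of Neurog1, Neurog3, Insm1, Eomes, Atoh1 and Ptf1a, and with Neurog2 in 4 cells.

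The share of Sox2/Fabp7 cells was higher in the f/w-titled library, but not beyond counting error once cells with Sox10 RNA were added back. The 42 cells of the f/f-titled library were 0.346% of its 12144 passing cells (0.249% to 0.467%), and the 56 cells of the f/w-titled library 0.563% of 9942 (0.426% to 0.731%), a log2 ratio of 0.70 (0.13 to 1.28). Outside muscle cells, which differed between the libraries, the shares were 0.430% and 0.573%, with a log2 ratio of 0.41 (−0.17 to 0.996). With any Sox10 count allowed, they were 94 cells (0.774%) and 83 cells (0.835%), with a log2 ratio of 0.11 (−0.32 to 0.53). Cells with at least 1 Sox10 UMI went the other way, with 52 cells (0.428%) in the f/f-titled and 27 (0.272%) in the f/w-titled library and a log2 ratio of −0.66 (−1.33 to 0.01). Neurons made up 6.14% and 11.2% of passing cells. With 1 library a genotype, a share cannot be told apart from how each embryo was dissected and sorted.

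Srsf2, the gene floxed in this design, was detected in both libraries. It lies at chr11:116849901-116853094 on the minus strand of GRCm38 and overlaps Mettl23 and Mfsd11 on the plus strand, which had 24 and 9 UMIs in these cells. Srsf2 had 95 UMIs in 32 of 42 f/f-titled cells (210 CPM) and 122 UMIs in 42 of 56 f/w-titled cells (183 CPM). The log2 ratio was −0.20 (−0.60 to 0.20), which did not differ from 0 beyond counting error. It was −0.0032 without the 12 Srsf2 UMIs of the highest f/f-titled cell, with total UMIs unchanged. The highest f/w-titled cell also held 12 and was left in. The counts are of all RNA 3′ ends of the gene and do not show whether floxed exons were present. Of 16 SR and related splicing genes, 15 had at least 50 UMIs and 0 were 2-fold apart between libraries. Of all 3626 genes, 1.54% were at least 2-fold higher and 2.10% at least 2-fold lower in the f/w-titled library. The 16 genes summed to 4512 CPM in the f/f-titled and 4629 CPM in the f/w-titled library.

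Between the libraries, 56 of 3626 genes (1.54%) were at least 2-fold higher in the f/w-titled library and 76 (2.10%) at least 2-fold lower, and the median log2 ratio of all genes was 0.01. The balance turned to 61 higher and 26 lower when the cells were chosen after thinning to 3000 UMIs. The limits on Sox2, Fabp7, neuronal genes and keratins were then all set lower, so that depth and limits changed together. Of the genes past 2-fold, 30 higher and 27 lower stayed so without the gene's UMIs in the highest cell of the higher library, with total UMIs unchanged. Genes of dividing cells were higher in the f/f-titled library. Of 18 genes of the G2/M phase, 12 had at least 50 UMIs, and 10 of these were at least 2-fold higher in the f/f-titled library, with a median log2 ratio of −1.49. Their summed level was 2111 CPM in the f/f-titled and 755 CPM in the f/w-titled library. The sum was also higher in the f/f-titled library in neurons (1115 and 782 CPM), in Schwann lineage cells with at least 2 Sox10 UMIs (1880 and 1326 CPM) and in all other passing cells (1576 and 973 CPM). Top2a, a topoisomerase of dividing cells, stood at 377 and 133 CPM, and Cenpf, a kinetochore protein, at 196 and 43.4 CPM. A few cells carried part of this difference, since 5 cells held 64.5% of the G2/M UMIs in the f/f-titled and 47.4% in the f/w-titled library. With the G2/M UMIs of those 5 cells a library left out and the total UMIs unchanged, the levels were 750 and 397 CPM. The level was still higher in the f/f-titled library. The share of cells with at least 3 G2/M UMIs was 20 of 42 (47.6%) and 27 of 56 (48.2%), which did not follow the summed level, and after thinning each cell to 2000 UMIs it was 11 of 41 (26.8%) and 10 of 56 (17.9%). The 7 S phase genes with at least 50 UMIs had 0 past 2-fold. Of 13 neural progenitor genes 0 were 2-fold apart. For Fabp7, whose counts chose the cells, the log2 ratio was −0.71 and is description only. It was −0.42 without the Fabp7 UMIs of its highest f/f-titled cell, with total UMIs unchanged.

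On the f/w-titled side stood genes of cartilage. Of 9 chondrocyte genes, 8 were at least 2-fold higher in the f/w-titled library, where 1.54% of all 3626 genes were. The median log2 ratio of the 9 was 2.25, and that of all genes was 0.01. The 9 genes summed to 858 CPM in the f/f-titled and 2940 CPM in the f/w-titled library. Col2a1, the main collagen of cartilage, stood at 232 and 1070 CPM in the Sox2/Fabp7 cells, where neurons of the same libraries held 647 and 691 CPM and all other passing cells 2308 and 2352 CPM. Schwann lineage cells ran the other way, at 1373 and 891 CPM, as did the cells of the same gate with Sox10 RNA, at 1066 and 661 CPM. A single cell held 271 of the 715 f/w-titled Col2a1 UMIs. Without those 271 UMIs, and with total UMIs unchanged, the log2 ratio fell to 1.52 from 2.21. Cxcl2, a chemokine, had 2 UMIs in the f/f-titled and 187 in the f/w-titled library, of which 150 were in 1 cell. Ccl2, another chemokine, had 5 and 105 UMIs, with 90 in 1 cell. Cxcl10, a chemokine found in 21 of 42 f/f-titled and 26 of 56 f/w-titled cells, went the other way, at 320 and 199 CPM, with a log2 ratio of −0.68 (−1.03 to −0.33). Cxcl10 was named after its values were seen, as a leading gene of the glia-gene cells. It was detected in 45 of 73 glia-gene and 2 of 25 glia-gene-poor cells. The cyclin-dependent kinase inhibitor Cdkn1a was spread more widely, with 23 UMIs in 14 of 42 f/f-titled cells (50.7 CPM) and 135 UMIs in 26 of 56 f/w-titled cells (202 CPM). Its log2 ratio was 1.99 (1.35 to 2.70), and 1.80 without the Cdkn1a UMIs of its highest cell, with total UMIs unchanged. Ibsp, a bone matrix protein, had 127 UMIs in the f/f-titled library, of which 115 were in 1 cell, and 6 in the f/w-titled library. Acta2, smooth muscle actin, had 86 of its 91 f/f-titled UMIs in 1 cell. Its log2 ratio turned from −3.61 to 0.58 without those 86 UMIs, with total UMIs unchanged.

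**Figure D5:**
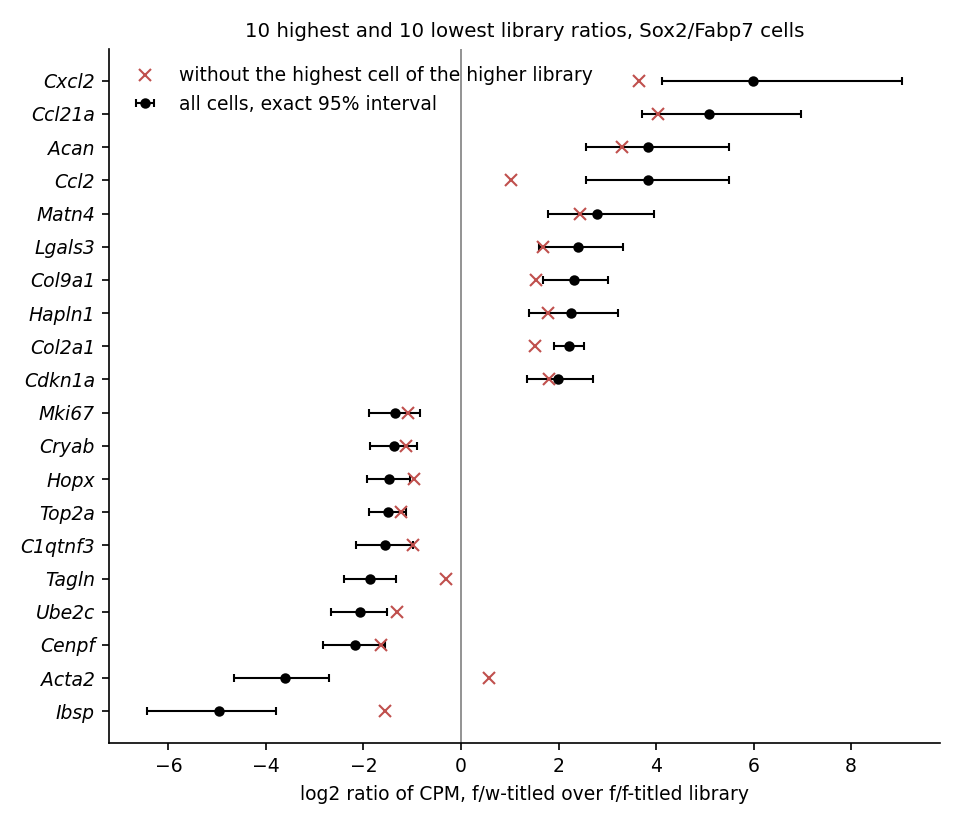
Points give the log2 ratio of CPM, f/w-titled over f/f-titled library, for the 10 highest and 10 lowest genes with at least 100 UMIs in the Sox2/Fabp7 cells, with exact 95% counting intervals. The second marker gives the ratio without the gene's UMIs in the highest cell of the higher library, with total UMIs unchanged. Acta2 changes sign from −3.61 to 0.58, Ibsp moves from −4.96 to −1.56, while Cdkn1a moves only from 1.99 to 1.80.

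RNA of other cell types was present in these cells, and for several types its level differed between the libraries. The 10 skeletal muscle genes summed to 88.2 CPM in the f/f-titled and 24.0 CPM in the f/w-titled library, led by Actc1, a cardiac and embryonic muscle actin, found in 15 of 42 and 1 of 56 cells. Neurons held Actc1 in 33.2% of f/f-titled and 4.03% of f/w-titled cells, and all 10 muscle genes were detected at some level. The 8 immune genes summed to 2.21 and 154 CPM, led by Fcer1g, and Ptprc, the pan-leukocyte marker, was at 0. Cma1, a mast cell chymase, was in 0 of 42 and 12 of 56 cells, and in 1.61% and 17.5% of neurons. The 7 endothelial genes summed to 8.82 and 88.3 CPM, led by Lyve1, with Tek at 0. The 10 mesenchyme genes summed to 5432 and 3181 CPM, led by Col1a2. The 7 erythroid genes summed to 124 and 108 CPM, led by Hbb-bs, with Alas2 and Hba-x at 0, and their log2 ratio of −0.20 (−0.72 to 0.33) did not differ from 0 beyond counting error. The 8 epithelial genes summed to 22.1 and 37.4 CPM, led by Epcam, with Krt5 and Krt8 at 0, and a log2 ratio of 0.76 (−0.35 to 1.99) that did not differ from 0 beyond counting error either. The 6 pericyte genes summed to 112 and 73.4 CPM, led by Cspg4, with Rgs5 at 0. The part of this RNA in the differences between libraries was not tested.

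Genes that respond to dissociation had a higher summed level in the Sox2/Fabp7 cells than in the other passing cells of both libraries, led by Jun. The 13 such genes summed to 13248 CPM in the f/f-titled and 15485 CPM in the f/w-titled library, against 9427 and 12282 CPM in all other passing cells. In glia-gene cells the sums were 14090 and 16645 CPM, and in glia-gene-poor cells 9138 and 12787 CPM. The glia-gene-poor sum was thus below that of the other passing cells in the f/f-titled library and above it in the f/w-titled library. At least 2-fold above the other cells in both libraries were 2 of the 13, the heat shock genes Hspa1a and Hspa1b, against 5.68% of all genes, and the median log2 ratio in the lower library was 0.15. Jun, an immediate early transcription factor, stood at 3676 CPM in glia-gene and 1947 CPM in glia-gene-poor cells, and Hspa1a, a heat shock protein, at 417 and 79.2 CPM. Between libraries, 1 of the 13 genes, Ier3, was at least 2-fold higher in the f/w-titled library, against 1.54% of all genes, and 0 were lower, against 2.10%.

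Clustering of the 98 cells by their most variable genes gave 3 groups, with both libraries in each. The first held 37 cells (13 f/f-titled and 24 f/w-titled), 21 of them glia-gene-poor, and was led by Bcan, Ramp1, Fgfbp3, Mt3 and Pla2g7. The second held 32 cells (13 and 19), 29 of them glia-gene cells, with a median of 21 G2/M UMIs, and was led by Aspm, Ndst3, Cep55 and Kif2c. The third held 29 cells (16 and 13), 28 of them glia-gene cells, with a median of 5703 UMIs, and was led by Kcna4, 2900052N01Rik, Arhgef6, Abca8a and Slco3a1. The clusters are numbered and not named, since their leading genes were chosen on the same cells.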

How the data were processed

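Single-cell libraries were made with the Chromium 3′ v3.1 kit from sorted tdTomato-positive cells, 1 library per genotype. The deposited counts are UMI counts per gene and barcode, which the authors made with Cell Ranger (3.1.0 in the submitters' processing notes, 5.0.0 in the file header) on mm10, with STAR and Seurat 3.1.1 also listed. The matrix held 32285 genes and 27766 barcodes, and 0 columns were left unused. Barcodes were kept at 1000 or more UMIs and at most 10% mitochondrial UMIs, and the cell rule was applied to raw UMIs. No doublet caller was run, and a UMI maximum and a limit on genes of other classes were tried instead. Counts were summed per library and divided by total UMIs (CPM), with intervals from exact binomial and Poisson limits and, for ratios of shares, an approximate log-normal interval. Genes were compared above 50 UMIs at 2-fold. The reference for positions was GENCODE M21 (99.6% of gene identifiers matched). Neurons were passing cells at or over the neuronal limit with no Sox2 or Sox10 UMI, and muscle cells were those with 2 or more detected muscle genes. Named genes were those of fixed lists, the 15 highest over other cells in at least 25% of members, the 10 highest and 10 lowest library ratios above 100 UMIs, and 5 leading genes per cluster. Ahr, Vgll3, Adgrg6 and Cxcl10 were named from the leading genes between glia-gene and glia-gene-poor cells, after their values were seen. Clusters came from 1000 variable genes, 20 components, 15 neighbours and the Leiden method at resolution 0.6. Some genes of the lists and rules are not reported here and entered no list sum. The members and lists were chosen with earlier results of these data known. Clustering used leidenalg 0.10.2 with python-igraph 0.11.9 and scikit-learn 1.9.0, tables pandas 2.3.3, statistics SciPy 1.17.1 and NumPy 2.4.6 under Python 3.11.15, and plots matplotlib 3.10.9. The counting code was tested on simulated data.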

Additional observations from a re-analysis of the deposited data

How the results depend on the processing

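No paired analysis was possible because each group has 1 library, and for the same reason no replicate could be left out. The log2 ratio of the shares stayed above 0 under all 12 alternatives (0.026 to 1.12), and fell to 0.11 with any Sox10 count. Its interval reached below 0 with 3 UMIs of each gate gene, outside muscle cells, with few genes of other classes, in glia-gene or glia-gene-poor cells alone and with any Sox10 count. Allowing at most 1 detected gene of each other class left 6 and 5 cells, with a share ratio of 0.026, a Srsf2 log2 ratio of −1.64, 5 genes past 2-fold, cycling shares of 16.7% and 0% and glia genes in 63.6%. The 132 genes past 2-fold became 1267 at a minimum of 10 UMIs, 13 at 200 and 85 in glia-gene-poor cells alone. They became 87 (61 higher and 26 lower in the f/w-titled library) with the gate applied after thinning to 3000 UMIs. That gate also used lower limits on Sox2, Fabp7, neuronal genes and keratins. Of the 132, 57 (30 higher, 27 lower) stayed past 2-fold without the gene's UMIs in the highest cell of the higher library. The cycling share in the f/f-titled library was 26.8% after thinning, 64.3% at 2 UMIs and 30.95% at 5, and in the f/w-titled library 17.9% after thinning. The share with at least 1 of the 3 peripheral glia genes was 50.5% after thinning to 2000 UMIs and 63.6% at 3 UMIs of each gate gene, and 56.1% of cells held at least 2 and 22.4% all 3, within 22.4% to 81.4% under all 14 alternatives. Dorsal genes alone were in 14.4% of cells after thinning and 9.18% without Pax3 and Pax7, ventral genes alone in 2.06% after thinning, both in 0% and 0%, and neither in 83.5% and 82.7%. Clusters numbered 1 at resolution 0.3 and 4 at 1.0. Srsf2 kept a negative log2 ratio under all 12 alternatives (−1.64 to −0.13). The ratio was −0.0032 without the Srsf2 UMIs of its highest f/f-titled cell, with total UMIs unchanged and the highest f/w-titled cell left in. The alternatives on peripheral glia genes, on Sox10, on glia-gene and glia-gene-poor cells alone and on single cells were chosen after seeing the data. The cause of these changes was not tested. Depth and 25 glia-gene-poor cells limit every comparison within that group.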

Other observations

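Further gene groups were measured in the Sox2/Fabp7 cells. Of 12 genes of apical junctions and polarity, 8 had at least 50 UMIs. Of these 8, 2 were at least 2-fold above all other passing cells in both libraries, where 5.68% of all genes were. Between libraries 0 of the 8 were 2-fold apart, where 1.54% of all genes were higher and 2.10% lower in the f/w-titled library. The 12 genes summed to 1160 CPM in the f/f-titled and 1066 CPM in the f/w-titled library, against 529 and 536 CPM in the other passing cells. Schwann lineage cells stood nearer to the Sox2/Fabp7 cells, at 939 and 927 CPM. The 12 genes of fibroblast growth factor signalling summed to 543 CPM in glia-gene and 1317 CPM in glia-gene-poor cells, of which Fgfbp3 alone made 5.93 and 767 CPM. Of the 5 with at least 50 UMIs, glia-gene cells were at least 2-fold above glia-gene-poor cells in both libraries for 1 and below for 1, where 5.32% and 1.96% of all genes were, with a median log2 ratio of −0.15, and the receptor Fgfr3 was detected in 6 of 73 and 7 of 25 cells. The 15 genes of bone morphogenetic protein signalling summed to 1455 and 2433 CPM, led by Id3. Of 9 fatty acid binding protein genes, 5 were at 0, and Fabp5, the epidermal member, stood at 590.4 CPM in glia-gene and 572 CPM in glia-gene-poor cells. Cdkn1c, an inhibitor of the cell cycle, stood at 1323 CPM in the f/f-titled and 1509 CPM in the f/w-titled library, below the 3638 CPM of the other passing cells of both libraries. Xist had 0 UMIs and the Y-linked gene Ddx3y 147 UMIs in these mouse cells.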
